A study of Saccharomyces cerevisiae with 16 samples.

Results

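The 35 genes described here encode the enzyme that transcribes yeast messenger RNA and the apparatus that recruits it: 10 subunits of RNA polymerase II, both listed subunits of TFIIF, TFIIB, the TATA-binding protein and 21 subunits of the head, middle and tail of Mediator. They were chosen by name, with the kinase module of Mediator left out, and 35 of 35 listed symbols matched 1 probe each among the 6388 gene probes of the array. The study measured RNA from 8 budding yeast strains on 16 spotted arrays, 2 per strain, each array setting 1 strain against a common reference pool. The strains carried fcp1-mut-tag-flag, or an FCP1 truncation labelled 1:713, 1:666, 1:609 or 1:594, or 1:666, 1:609 or 1:594 together with cdk8-del. Every FCP1 allele was tagged with FLAG, no treatment is labelled, and cells came from plate reader cultures in mid-log phase. The change in fcp1-mut and the genotype of the pool are not given in the sources used here, and RNA of the pool was isolated by another protocol than RNA of the strains. No wild-type strain is among the samples used here, so differences between a strain and the pool hold genotype, strain background and isolation together.

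RNA polymerase II carries a long tail of repeats on its largest subunit, the C-terminal domain of Rpo21, which is phosphorylated as the enzyme leaves the promoter and has to be dephosphorylated before the next round. Fcp1 is a phosphatase of that tail, and it binds the enzyme together with TFIIF. Mediator joins gene-specific activators, through its tail, to the polymerase and the general factors, through its head and middle, and the Cdk8 kinase encoded by SSN3 belongs to a separable module of the same complex. Changes in the phosphatase or the kinase act on the proteins described here. The arrays report the transcripts that encode them, and say nothing of the amount or the phosphorylation of the proteins.

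Values are log2 ratios of strain over reference after dye balancing, so that 0 is the typical gene of that array. A difference between strains is the difference of such ratios. Each ± is limma's standard error from 1 model of all 16 arrays, with n = 2 arrays per strain. The spread is pooled over the strains, so a gene has the same standard error in every single strain. In RNA from whole cultures, fewer cells with a transcript and less of it per cell cannot be told apart. Each strain has an array a, on which its RNA carried Cy3, and an array b, on which it carried Cy5. The labels do not say whether these came from separate cultures, so p-values measure the spread between these arrays, which may be technical. Calls used the limits named in the study's design text, here a Benjamini-Hochberg adjusted p under 0.01 over all 6388 probes and a fold above 1.7, which is 0.77 on the log2 scale. Since no member passed both limits, members that passed the p limit alone are counted as well, a rule chosen after seeing the data. Arrays of the same letter resembled each other, so counts with the letter as a block are given beside them. Of the 40 passes of that limit against the reference or 1:713, 10 held under median centring of the arrays and 14 when arrays were scaled on the external control spots. Where an array of a strain was left out, the strain's value is that of its other array, which is given with it, the standard error is larger by construction, and the spread comes from the other strains. A pass lost in this way therefore says only that it needed both arrays. Of the members, 34 were above background in both channels on all 16 arrays. The exception was MED4, above background in the strain on 4 arrays and in the reference on 4 arrays.

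The altered genes and 6 strain markers were read first. SSN3 was not above background on 6 of 6 cdk8-del arrays. FCP1 was called lower against the reference in the 4 strains with 1:609 or 1:594, between -3.69 and -2.67 on their 8 arrays, and lay between -0.50 and -0.10 on the other 8. Where its probe lies in the gene was not examined, so a probe target lost by truncation and less transcript cannot be told apart. The marker LYS2, of lysine synthesis, lay between 2.69 and 3.41 on those same 8 arrays and between -0.11 and 0.17 on the other 8. The alpha-specific genes SAG1 and STE3 were lowest in the same 4 strains. MET17, of methionine synthesis, was near the reference in 1:666 cdk8-del and 1:594 cdk8-del (-0.60 to 0.06 on 4 arrays) and between -5.01 and -4.33 on the other 12 arrays. The alpha-factor gene MF(ALPHA)2 was called lower in 1:666 as well (-1.09 against the reference), where LYS2 was at 0.12, and SAG1 was called higher with cdk8-del within 1:609 (1.12). Strain background and an effect of the alleles on these markers cannot be told apart in comparisons that involve 1:609 or 1:594, or in those of cdk8-del.

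None of the 35 members was called in any of the 20 comparisons. The share of all probes called was 0.235% in fcp1-mut, 0.172% in 1:713, 0.626% in 1:666, 3.12% in 1:609 and 2.25% in 1:594 against the reference. It was 3.91%, 3.73% and 4.57% in 1:666 cdk8-del, 1:609 cdk8-del and 1:594 cdk8-del, and 0.908% on the mean of the 8 strains. A count of 0 of 35 is near what these shares give for any list of this size. The 95% interval lay inside the fold limit, on both sides of 0, for 35 of 35 members in fcp1-mut, 1:713 and 1:609 against the reference, for 34 in each of 1:666, 1:666 cdk8-del, 1:609 cdk8-del and 1:594 cdk8-del, and for 33 in 1:594. Among all probes this share was 97.6%, 98.1% and 89.3% in fcp1-mut, 1:713 and 1:609, 95.2%, 88.7%, 88.6% and 88.1% in the next 4, and 91% in 1:594. On the mean of the 8 strains it held for 35 of 35 members and 98.6% of all probes. The members whose interval reached past the limit were RPO21 in 1:666, 1:594 and 1:666 cdk8-del, RPB2 in 1:594, and RPB4 in 1:609 cdk8-del and 1:594 cdk8-del. All intervals given here and below come from the fit without the letter block, so a common difference between a and b arrays widens them. For RPB4 that difference had a median of 0.44.

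**Figure D1:**
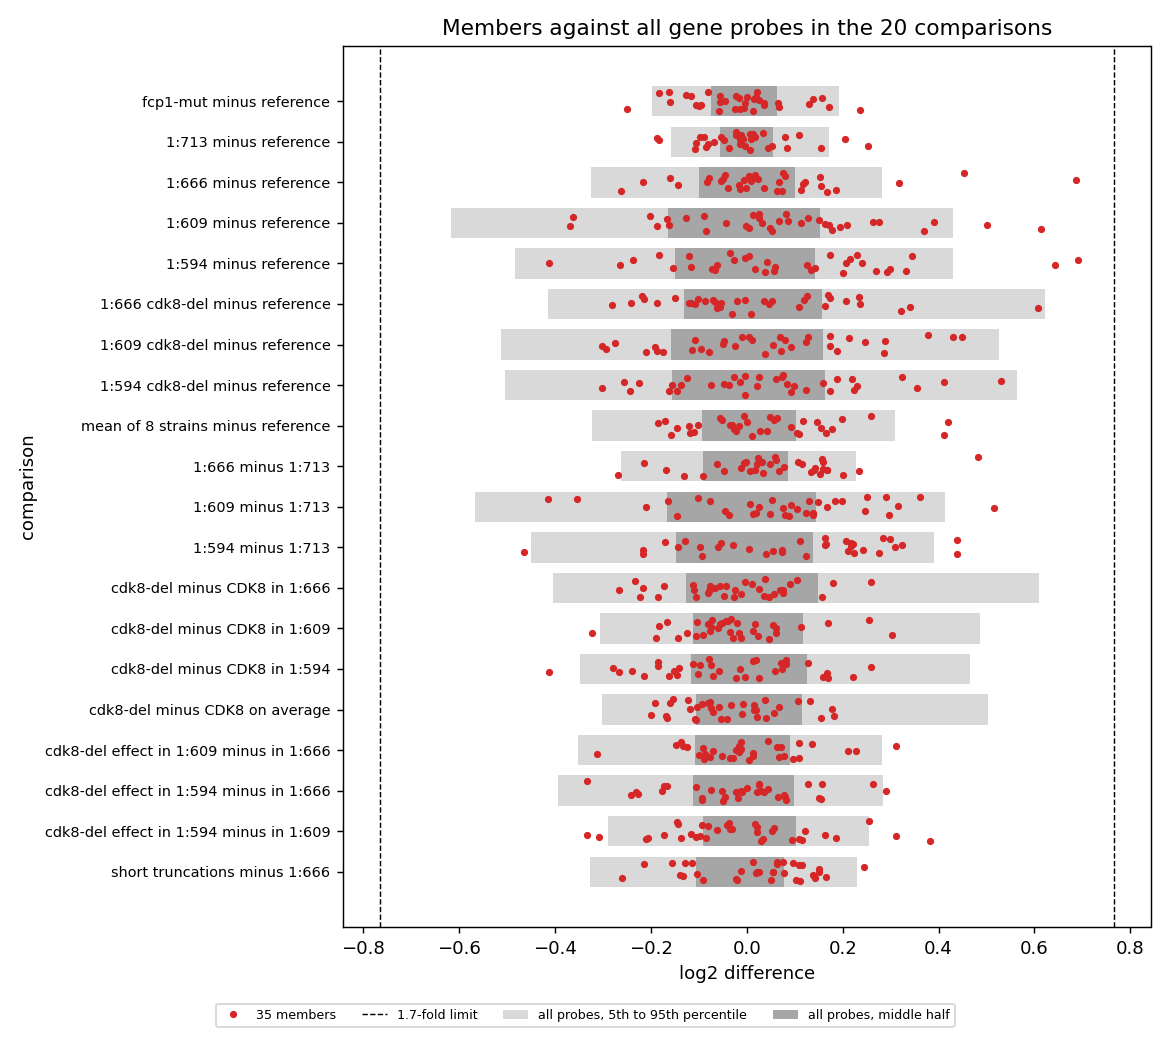
Log2 difference of the 35 members (red points) in each of the 20 comparisons, over the 5th to 95th percentile (light bars) and the middle 50% (dark bars) of all 6388 gene probes, with the 1.7-fold limit as dashed lines. Every member lies between the dashed lines in every comparison, and RPO21 and RPB2 reach furthest, at 0.69 in 1:666 and 0.69 in 1:594 against the reference.

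The members also varied little among the strains. The SD of a gene's 8 strain means had a median of 0.108 over the members and 0.123 over all probes, and 9 of 35 members stood in the upper 50% of all probes. Of the 280 member and strain pairs, 254 lay within 0.3 of 0. The Mediator members had a median SD of 0.0908 and the polymerase II members one of 0.121. The members that varied most were RPB11 (SD 0.23), RPO21 (0.20), ROX3 (0.17) and RPB2 (0.17). The a and b arrays of a strain differed by a median of 0.148 for the members and 0.143 for all probes. For the 2 catalytic subunits, the strain means were all above 0, from 0.21 to 0.69 for RPO21 and from 0.17 to 0.69 for RPB2. For RPO21 no comparison between strains passed the p limit described above, with or without the letter as a block.

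**Figure D2:**
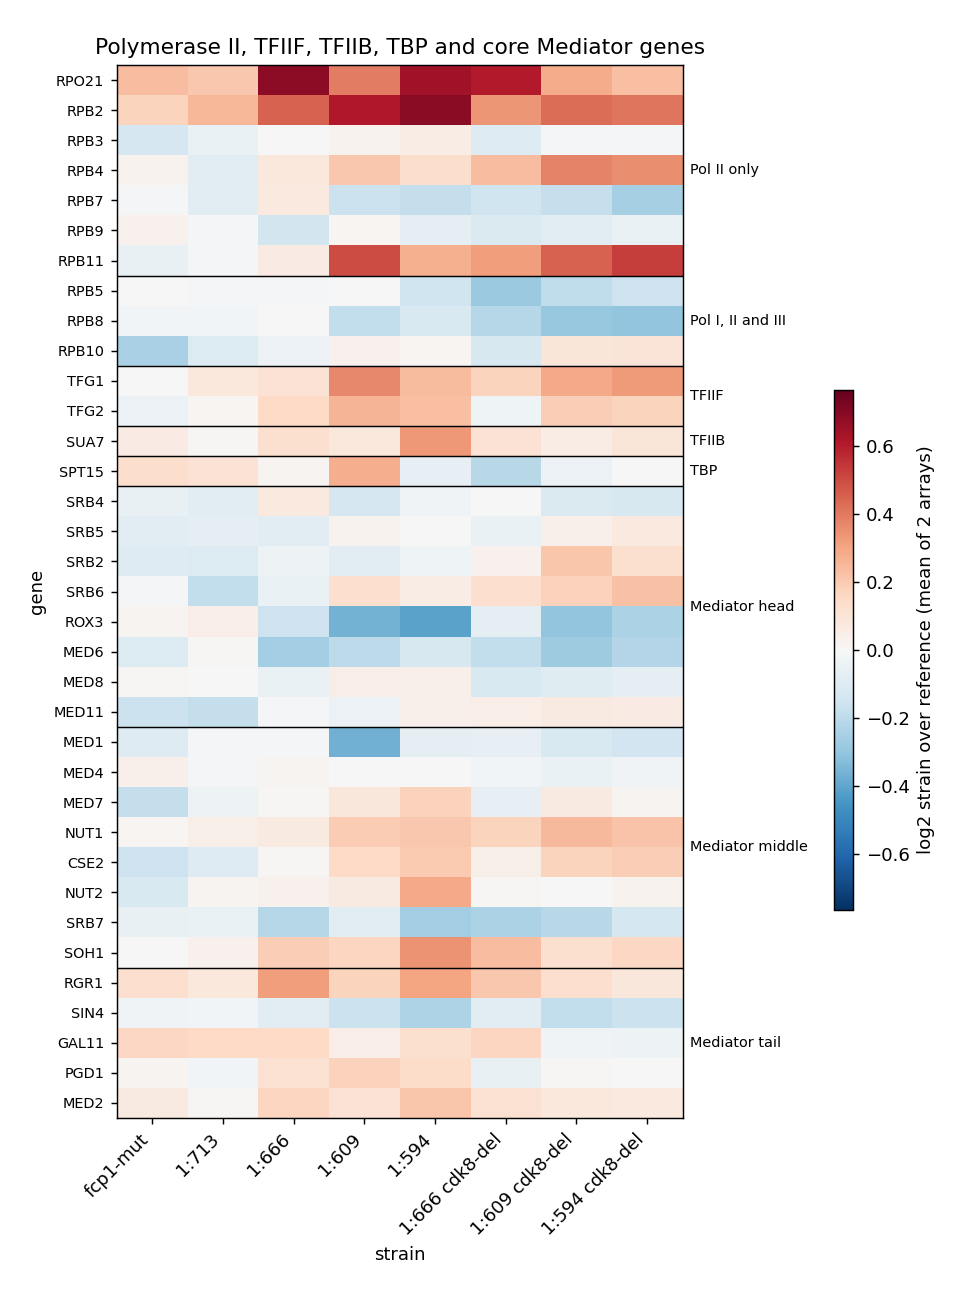
Mean log2 strain over reference (n = 2 arrays) of each member in the 8 strains, grouped by complex, with red for higher and blue for lower than the typical gene. RPO21, RPB2 and RPB11 hold the darkest red cells and ROX3 and MED1 the darkest blue, while most other cells are pale.

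RPO21 encodes the largest subunit, which forms the active site with Rpb2 and carries the C-terminal domain. On arrays a and b it stood at 0.13 and 0.34 in fcp1-mut, -0.010 and 0.42 in 1:713, 0.96 and 0.41 in 1:666, 0.52 and 0.26 in 1:609 and 0.44 and 0.84 in 1:594, and at 0.69 and 0.52 in 1:666 cdk8-del, 0.15 and 0.42 in 1:609 cdk8-del and 0.15 and 0.31 in 1:594 cdk8-del. It was above 0 on 15 of 16 arrays, and the arrays of a strain could lie as far apart as the strain means, so that every strain overlapped with several others. Its mean over the strains was 0.41 ± 0.053 (limma adjusted p = 5.71e-05), and 0.12 when arrays were scaled on the external control spots. In single strains it passed the p limit in 1:594 alone, at 0.64 ± 0.15 (limma adjusted p = 0.00799), and not when either 1:594 array was left out. On the external control scale it passed as higher in no single strain. With the letter as a block it passed in 1:666 (0.69) and 1:666 cdk8-del (0.61) as well.

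RPB2, which encodes the second largest subunit, had closer arrays, with array a the higher one in every strain. It stood at 0.22 and 0.13 in fcp1-mut, 0.28 and 0.23 in 1:713, 0.54 and 0.36 in 1:666, 0.67 and 0.55 in 1:609 and 0.74 and 0.64 in 1:594, and at 0.39 and 0.29 in 1:666 cdk8-del, 0.46 and 0.40 in 1:609 cdk8-del and 0.47 and 0.35 in 1:594 cdk8-del. It was the only member above 0 on 16 of 16 arrays, lowest in fcp1-mut and 1:713 and highest in 1:609 and 1:594, and the arrays of these pairs of strains did not overlap. RPB2 passed the p limit against the reference in 6 of 8 strains, at 0.45 ± 0.061 in 1:666, 0.61 ± 0.061 in 1:609 and 0.69 ± 0.061 in 1:594, and at 0.34, 0.43 and 0.41 in the same truncations with cdk8-del. In fcp1-mut and 1:713 it was 0.17 and 0.25 (limma adjusted p = 0.234 and 0.0891), and both passed with the letter as a block. Under median centring, 4 of these 6 did not pass and RPB2 was called in 1:609 (0.77) and 1:594 (0.86). When arrays were scaled on the external control spots, none of the 6 passed as higher. Its mean over the strains was 0.13 on that scale, beside 0.42 without it.

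RPB11 encodes a small subunit that pairs with Rpb3 early in assembly of the enzyme. It stood at -0.062 and -0.048 in fcp1-mut, -0.11 and 0.077 in 1:713, 0.10 and 0.023 in 1:666, 0.38 and 0.62 in 1:609 and 0.19 and 0.35 in 1:594, and at 0.21 and 0.43 in 1:666 cdk8-del, 0.43 and 0.46 in 1:609 cdk8-del and 0.35 and 0.71 in 1:594 cdk8-del. The fcp1-mut, 1:713 and 1:666 arrays were at or near the reference, all below the 10 arrays of the other 5 strains. RPB11 passed the p limit in 1:609 (0.50 ± 0.091), 1:609 cdk8-del (0.45 ± 0.091) and 1:594 cdk8-del (0.53 ± 0.091), in 1:609 not without array b and in 1:609 cdk8-del not without either array. On the external control scale RPB11 passed as higher in no strain, and its mean over the strains was -0.036. Its partner RPB3 ranged over the strains only from -0.13 to 0.058 and passed in none.

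RPB4 and RPB7 encode a stalk that can leave the enzyme. RPB4 read higher on array a than on array b in 8 of 8 strains, at 0.24 and -0.19 in fcp1-mut, 0.14 and -0.32 in 1:713, 0.28 and -0.12 in 1:666, 0.39 and 0.026 in 1:609 and 0.34 and -0.073 in 1:594, and at 0.46 and 0.013 in 1:666 cdk8-del, 0.66 and 0.10 in 1:609 cdk8-del and 0.63 and 0.079 in 1:594 cdk8-del. The b arrays stayed between -0.32 and 0.10 and the a arrays between 0.14 and 0.66, and letter, dye and culture cannot be told apart. Its highest strain mean was 0.38 ± 0.20 in 1:609 cdk8-del, with a limma adjusted p of 0.188, or 4.20e-06 with the letter as a block. RPB7 ranged from -0.26 to 0.074 and was below the typical gene on the mean of the strains (-0.12 ± 0.029, limma adjusted p = 0.00508). RPB9, whose product helps the enzyme choose start sites and proofread, ranged from -0.14 to 0.036.

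RPB5, RPB8 and RPB10 encode subunits shared with RNA polymerases I and III. Their strain means ran from -0.30 for RPB8 in 1:594 cdk8-del to 0.099 for RPB10 in the same strain, and none passed the p limit in any single strain. Under the letter block, RPB5 and RPB8 passed as lower in the 3 cdk8-del strains, RPB5 in 1:594 (-0.15) and RPB10 in fcp1-mut (-0.25) too. On the mean of the strains RPB8 was lower, at -0.15 ± 0.035 (limma adjusted p = 0.00444). RPO26 and RPC10 also encode shared subunits but were not on the list of members. On the mean of the strains they were at 0.027 ± 0.038 and 0.058 ± 0.027, and neither passed the p limit.

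**Figure D3:**
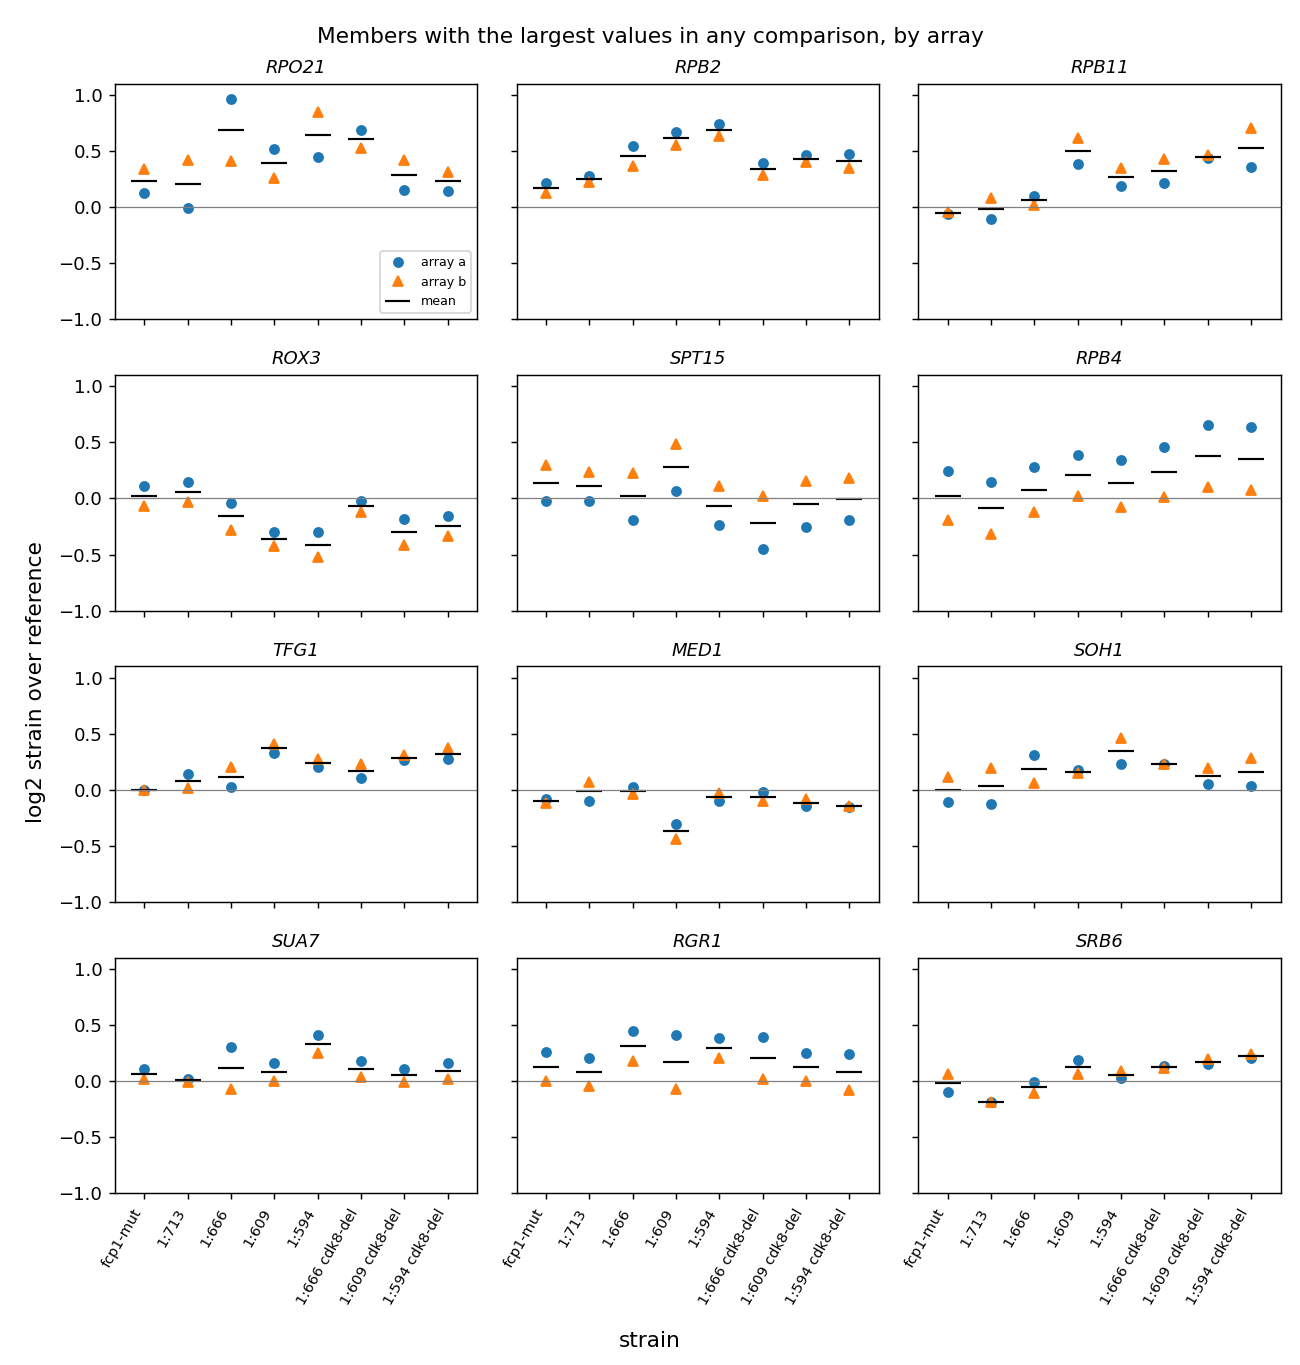
Log2 strain over reference of 12 members on each array (blue circles for array a, orange triangles for array b, black bars for the mean of the pair) in the 8 strains. RPB2, TFG1, MED1 and SRB6 have close pairs. RPB2, RPB4, SUA7, ROX3 and RGR1 read higher on array a in every strain, and SPT15 higher on array b.

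TFIIF travels with the polymerase and is a docking partner of Fcp1. TFG1, for its largest subunit, stood at -0.0041 and -0.0017 in fcp1-mut, 0.14 and 0.015 in 1:713, 0.027 and 0.20 in 1:666, 0.33 and 0.41 in 1:609 and 0.20 and 0.28 in 1:594, and at 0.11 and 0.23 in 1:666 cdk8-del, 0.27 and 0.31 in 1:609 cdk8-del and 0.27 and 0.38 in 1:594 cdk8-del. Its 8 arrays of the 1:609 and 1:594 strains all lay above 0.20, and those of fcp1-mut and 1:713 did not overlap with them. It passed the p limit in 1:609 (0.37 ± 0.058), 1:594 (0.24 ± 0.058), 1:609 cdk8-del (0.29 ± 0.058) and 1:594 cdk8-del (0.32 ± 0.058), with the sign turned in 1:594 (-0.13) when arrays were scaled on the external control spots. On that scale TFG1 passed as higher in no strain. TFG2, for the second subunit, passed in 1:609 (0.26 ± 0.049) and 1:594 (0.23 ± 0.049), both below 0 on the external control scale (-0.039 and -0.15) and neither past the limit without either array of the strain, and ranged from -0.046 to 0.26.

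SUA7 encodes TFIIB, which positions the polymerase at the start site. It stood at 0.11 and 0.020 in fcp1-mut, 0.022 and -0.0074 in 1:713, 0.31 and -0.066 in 1:666, 0.16 and 0.0038 in 1:609 and 0.41 and 0.25 in 1:594, and at 0.18 and 0.040 in 1:666 cdk8-del, 0.11 and -0.0029 in 1:609 cdk8-del and 0.16 and 0.020 in 1:594 cdk8-del. Its a arrays were higher than its b arrays in 8 of 8 strains, and 1:594 was the only strain in which both exceeded 0.20. SUA7 passed the p limit in no strain, at 0.33 ± 0.086 in 1:594 (limma adjusted p = 0.0139, or 8.56e-05 with the letter as a block).

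SPT15 encodes the TATA-binding protein. It stood at -0.025 and 0.30 in fcp1-mut, -0.019 and 0.24 in 1:713, -0.19 and 0.23 in 1:666, 0.068 and 0.48 in 1:609 and -0.23 and 0.11 in 1:594, and at -0.45 and 0.021 in 1:666 cdk8-del, -0.25 and 0.16 in 1:609 cdk8-del and -0.19 and 0.18 in 1:594 cdk8-del. Here the b array was the higher one in 8 of 8 strains, by a median of 0.39, and the strains overlapped. No strain passed the p limit, the furthest being 1:609 at 0.28 ± 0.17 (limma adjusted p = 0.253). With the letter as a block 1:609 passed as higher and 1:666 cdk8-del (-0.21) as lower.

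Among the 8 head subunits of Mediator, the part that contacts the polymerase, ROX3 had the largest differences from the reference. It stood at 0.11 and -0.070 in fcp1-mut, 0.14 and -0.035 in 1:713, -0.037 and -0.28 in 1:666, -0.30 and -0.43 in 1:609 and -0.30 and -0.53 in 1:594, and at -0.021 and -0.12 in 1:666 cdk8-del, -0.18 and -0.42 in 1:609 cdk8-del and -0.15 and -0.33 in 1:594 cdk8-del. The a array was above the b array in every strain, and on either letter 1:609 and 1:594 were lower than 1:713 and fcp1-mut. ROX3 passed the p limit in 1:609 (-0.36 ± 0.090) and 1:594 (-0.41 ± 0.090), but not when either array of the strain was left out. Scaled on the external control spots it was called lower in 1:594, at -0.79. That scale moved all probes down alike and set their median in 1:594 at -0.37. The share of all probes called on it is not given here. SRB6, for a small head subunit, stood at -0.095 and 0.063 in fcp1-mut, -0.19 and -0.19 in 1:713, -0.0031 and -0.10 in 1:666, 0.19 and 0.064 in 1:609 and 0.025 and 0.087 in 1:594, and at 0.13 and 0.12 in 1:666 cdk8-del, 0.15 and 0.19 in 1:609 cdk8-del and 0.21 and 0.24 in 1:594 cdk8-del. Its pairs were close, its lowest values were in 1:713 and its highest in 1:594 cdk8-del, where it passed the p limit at 0.22 ± 0.052, not without either array of that strain, but read -0.020 on the external control scale. MED6 passed in 1:609 cdk8-del alone (-0.27 ± 0.064), not without either array of it, and was below 0 on 15 of 16 arrays. SRB4, the scaffold of the head, ranged from -0.13 to 0.076, SRB5 from -0.081 to 0.076, SRB2 from -0.11 to 0.21, MED8 from -0.12 to 0.049 and MED11 from -0.18 to 0.068, and these 5 passed in no strain. In the blocked fit, SRB2 passed in 1:609 cdk8-del (0.21), and ROX3 and MED6 passed as lower in 5 and 4 strains.

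The middle of Mediator links the head to the tail and to the kinase module. MED1, for a subunit of the middle that is not needed for growth, stood at -0.077 and -0.12 in fcp1-mut, -0.10 and 0.072 in 1:713, 0.026 and -0.040 in 1:666, -0.30 and -0.44 in 1:609 and -0.10 and -0.031 in 1:594, and at -0.023 and -0.10 in 1:666 cdk8-del, -0.15 and -0.083 in 1:609 cdk8-del and -0.15 and -0.14 in 1:594 cdk8-del. Both 1:609 arrays lay below the other 14, and 1:609 passed the p limit at -0.37 ± 0.054 (limma adjusted p = 0.000421). In 1:609 cdk8-del MED1 was at -0.11 ± 0.054 (limma adjusted p = 0.135). The direct difference between these strains did not pass the p limit, with or without the letter as a block. SOH1, for the Med31 subunit, stood at -0.11 and 0.11 in fcp1-mut, -0.13 and 0.20 in 1:713, 0.31 and 0.064 in 1:666, 0.18 and 0.15 in 1:609 and 0.23 and 0.46 in 1:594, and at 0.23 and 0.23 in 1:666 cdk8-del, 0.053 and 0.19 in 1:609 cdk8-del and 0.031 and 0.29 in 1:594 cdk8-del. It was above 0 on 14 of 16 arrays and passed on the mean of the strains (0.16 ± 0.035), which turned to -0.14 on the external control scale, but passed in no single strain. SRB7, for an essential subunit next to Med7, passed the p limit on the low side in 1:594 (-0.26 ± 0.053), 1:666 cdk8-del (-0.24 ± 0.053) and 1:609 cdk8-del (-0.21 ± 0.053), in none of them without either array of the strain. NUT1, CSE2, NUT2, MED7 and MED4 passed in no strain without the block. With it NUT1 passed as higher in 5 strains (0.17 to 0.25), CSE2 in 4 (0.15 to 0.20) and NUT2, MED7 and SOH1 in 1:594, MED7 was lower in fcp1-mut, and MED4 passed in none. The strain means of NUT1, CSE2, NUT2, MED7 and MED4 lay between -0.18 (MED7 in fcp1-mut) and 0.29 (NUT2 in 1:594).

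The tail binds activators, and RGR1 encodes the scaffold that ties it to the rest. RGR1 stood at 0.26 and -0.0014 in fcp1-mut, 0.21 and -0.042 in 1:713, 0.45 and 0.18 in 1:666, 0.41 and -0.071 in 1:609 and 0.39 and 0.21 in 1:594, and at 0.40 and 0.017 in 1:666 cdk8-del, 0.25 and 0.0040 in 1:609 cdk8-del and 0.25 and -0.077 in 1:594 cdk8-del. The a array was higher in 8 of 8 strains, and its highest strain mean, 0.32 ± 0.14 in 1:666, did not pass (limma adjusted p = 0.187). SIN4 was the only member below 0 on 16 of 16 arrays, ranging from -0.24 to -0.020, and passed the p limit in 1:594 (-0.24 ± 0.048), though not without either of its arrays. GAL11, PGD1 and MED2, which encode subunits that activators bind, ranged together from -0.055 to 0.21 and passed in no strain. With the letter as a block RGR1 passed as higher in 4 strains, MED2 in 1:666 (0.17) and 1:594 (0.21) and PGD1 in 1:609 (0.18). PGD1 had the widest split of any member, with a pair of arrays differing by up to 0.73.

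Counted over the members, the p limit alone was passed by 0 of 35 in fcp1-mut, 0 in 1:713, 1 in 1:666, 6 in 1:609 (4 higher and 2 lower, beside 9.58% and 12.6% of all probes) and 7 in 1:594 (4 higher and 3 lower, beside 8.55% and 9.8%). Among all probes the shares in either direction were 0.955%, 0.611%, 4.96%, 22.2% and 18.3%. In the strains with cdk8-del the counts were 2 of 35 in 1:666 cdk8-del, 5 in 1:609 cdk8-del and 4 in 1:594 cdk8-del, beside 19.1%, 23.3% and 23.5% of all probes. On the mean of the 8 strains 6 were higher and 7 lower, against 22.7% and 21.7% of all probes (44.4% together), or 14 and 10 with the letter as a block, against 35% and 32.5% (67.4%). With the block the counts in single strains were 3, 1, 8, 14, 17, 11, 15 and 14 in the same order, beside 8.11%, 3.58%, 25.7%, 48.7%, 45.6%, 45%, 49% and 49.3%. Taken over both directions, these counts are near or below what the shares of all probes give for 35 genes, with or without the block. By direction, the block gave 13 higher and 4 lower in 1:594, beside 22.4% and 23.2% of all probes. In 1:609 it gave 10 and 4, beside 23.7% and 25%. The higher count in 1:594 was above its share and the lower counts in both strains below theirs, which was not tested. The median member stood at 0.0099 on the mean of the strains, and the median probe at 0.0075. Scaling on the external control spots set the median of all probes at -0.29. That scale moves all probes of an array by the same amount, so the median member stayed 0.0025 above the median probe by construction.

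The truncations were compared with 1:713, the longest one, as a step toward the effect of shortening FCP1. Against 1:713, the catalytic subunit gene RPB2 was 0.20 in 1:666, 0.36 in 1:609 and 0.44 in 1:594, and ROX3 was -0.21, -0.42 and -0.47. No member was called, and the share of all probes called was 0.047%, 1.97% and 1.27%. At the p limit, MED1 was lower in 1:609 (-0.35 ± 0.077, limma adjusted p = 0.00971) and RPB2 higher in 1:594 (0.44 ± 0.086, limma adjusted p = 0.00828), beside 8.36% and 5.39% of all probes, and no member passed in 1:666 (0.047%). Both stood so close to the limit that MED1 did not pass whichever of the 16 arrays was left out, and RPB2 did not for 14 of them. Median centring, print-tip lowess, plain background subtraction and external control scaling each ended both.

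Blocked on the letter, 9 members passed in 1:609 (31.5% of all probes) and 9 in 1:594 (27.1%), and 0 in 1:666 (2.93%). RPB2, RPB4, SRB6 and CSE2 were then higher and ROX3 lower in both comparisons, which share the 1:713 arrays. In 1:609 RPB11, TFG1 and TFG2 were higher and MED1 lower as well. In 1:594 SUA7, NUT2 and MED2 were higher and SIN4 lower. The arrays of the strains did not overlap for 7 higher and 4 lower members in 1:666 (14.9% and 16.6% of all probes), 9 and 5 in 1:609 (23.3% and 26.1%) and 13 and 5 in 1:594 (23.2% and 24.2%). The 95% interval lay inside the fold limit for 32 of 35 members in each of the 3 comparisons (93%, 84.2% and 86.4% of all probes). The median member was 0.059, 0.087 and 0.12 in the 3 comparisons, beside 0.0022, 0.00097 and 0.00032 for all probes. By complex, the medians in 1:666, 1:609 and 1:594 were 0.16, 0.18 and 0.22 for the 7 subunits of polymerase II only and 0.021, 0.0072 and -0.093 for the 3 shared polymerase subunits. They were 0.028, 0.035 and 0.063 for the head, 0.028, 0.085 and 0.19 for the middle and 0.14, 0.087 and 0.16 for the tail. LYS2 and the alpha-specific genes differ in the same comparisons of 1:609 and 1:594, and their part in these values was not tested.

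Averaged over CDK8 and cdk8-del, the 4 strains with 1:609 or 1:594 were also set against the 2 with 1:666. No member was called (0.438% of all probes) and none passed the p limit (6.51%). The members furthest from 0 were RPO21, at -0.26 ± 0.13 (95% interval -0.55 to 0.027), RPB11, at 0.25 ± 0.079 (0.071 to 0.42), and ROX3, at -0.21 ± 0.078 (-0.39 to -0.041). RPB2, the other catalytic subunit gene, was at 0.14 ± 0.053 (0.023 to 0.26). All 35 intervals lay inside the fold limit (96.9% of all probes), and no member had arrays that did not overlap (2.9% higher and 3.22% lower among all probes). With the letter as a block RPB2, RPB11, TFG1, TFG2, SPT15 and CSE2 passed the p limit as higher and ROX3 as lower, beside 12.6% and 17.3% of all probes (29.9% together). Of the 6 strain markers, LYS2 passed as higher and 5 as lower in this comparison, and their part in it was not tested.

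Deletion of CDK8 was read within each of the 3 truncations and as their average. No member was called in 1:666, 1:609, 1:594 or the average, beside 3.99%, 1.63%, 2.14% and 2.71% of all probes, and none passed the p limit, beside 9.39%, 3.33%, 4.07% and 16.7%. At an unadjusted p under 0.05, 2 members were higher and 3 lower in the average, beside 36.6% of all probes in either direction. In the average the members ran from -0.20 ± 0.12 for RPO21 (95% interval -0.47 to 0.071) to 0.18 ± 0.17 for RPB4 (-0.18 to 0.55), and all 35 intervals lay inside the fold limit, as did 94% of those of all probes. RPB2 came nearest to the p limit, at -0.19 ± 0.050 (limma adjusted p = 0.0149), and lower in each truncation, at -0.11 in 1:666, -0.18 in 1:609 and -0.28 in 1:594. No member had cdk8-del arrays all above or all below the CDK8 arrays (7.62% and 4.96% of all probes).

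Within the single truncations, 33, 32 and 32 of the intervals lay inside the fold limit (83.9%, 89% and 87.4% of those of all probes). Arrays did not overlap for 4 higher and 7 lower members in 1:666 (26.7% and 24.2% of all probes), 3 and 7 in 1:609 (22.2% and 20.1%) and 4 and 9 in 1:594 (20.8% and 20.4%). Under the letter block, 9 members passed the p limit in the average, 4 higher and 5 lower (22.2% and 20.6% of all probes, 42.9% together). RPB4 (0.18), SRB2 (0.18), SRB6 (0.13) and ROX3 (0.11) were higher, and RPB2, RPB5 (-0.15), SPT15 (-0.17), MED8 (-0.11) and PGD1 (-0.16) lower. In single truncations it was 2 in 1:666 (27.5%), 2 in 1:609 (16.5%) and 3 in 1:594 (19.7%). The difference of the cdk8-del effect between truncations was tested as well, and no member was called or passed the p limit for any of the 3 pairs, beside 0.0157%, 0.157% and 0.125% of all probes by either rule. The shift in MET17 is shared by the 1:666 and 1:594 comparisons and not by 1:609, where it was low with and without CDK8.

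RNA polymerases I and III, which transcribe ribosomal RNA and the small RNAs of translation, were read beside polymerase II, from lists of their own subunits. In the cdk8-del average, 3 of 7 polymerase I genes (RPA190, RPA135 and RPA43) and 5 of 10 polymerase III genes (RPO31, RET1, RPC53, RPC37 and RPC31) passed the p limit as lower and none as higher, beside 6.45% of all probes lower, and none was called. In the single truncations, RPA43, RET1, RPC53, RPC37 and RPC31 passed in 1:666 (3.16% of all probes lower) and none of the 17 passed in 1:609 (0.845%) or 1:594 (1.11%). For the 8 genes that passed in the average, values are given over 1:666, 1:609 and 1:594. None of the 8 passed the p limit for a difference of the cdk8-del effect between truncations. In that order RPA190 was at -0.45, -0.44 and -0.39, RPA135 at -0.41, -0.51 and -0.44, and RPA43 at -0.43, -0.26 and -0.19. RPO31 was at -0.24, -0.34 and -0.28, RET1 at -0.35, -0.29 and -0.34, and RPC53 at -0.39, -0.21 and -0.11. RPC37 was at -0.34, -0.17 and -0.20, and RPC31 at -0.50, -0.24 and -0.30. With the letter as a block, 5 of 7 and 9 of 10 passed as lower in the average, beside 20.6% of all probes, and 1 of 10 polymerase II members as higher and 2 as lower. The medians of the lists were -0.29 and -0.24, beside -0.087 for the 10 polymerase II members and -0.0050 for all probes, and no test of the difference between the lists was made. The largest subunit genes stood at -0.43 ± 0.067 for RPA190 (95% interval -0.58 to -0.28), -0.29 ± 0.047 for RPO31 (-0.39 to -0.18) and -0.20 ± 0.12 for RPO21. Of the subunits shared by polymerases I and III, RPC40 passed as lower (-0.29 ± 0.046) and RPC19 was at -0.11 ± 0.062. The genes of this paragraph were singled out after their values were seen. Apart from the letter block, their counts under other processing are not given here. The external control scale moves all probes up alike in the cdk8-del average and set their median at 0.18. MET17 also differed in the 1:666 and 1:594 comparisons, and the part of strain background in these values was not tested.

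**Figure D4:**
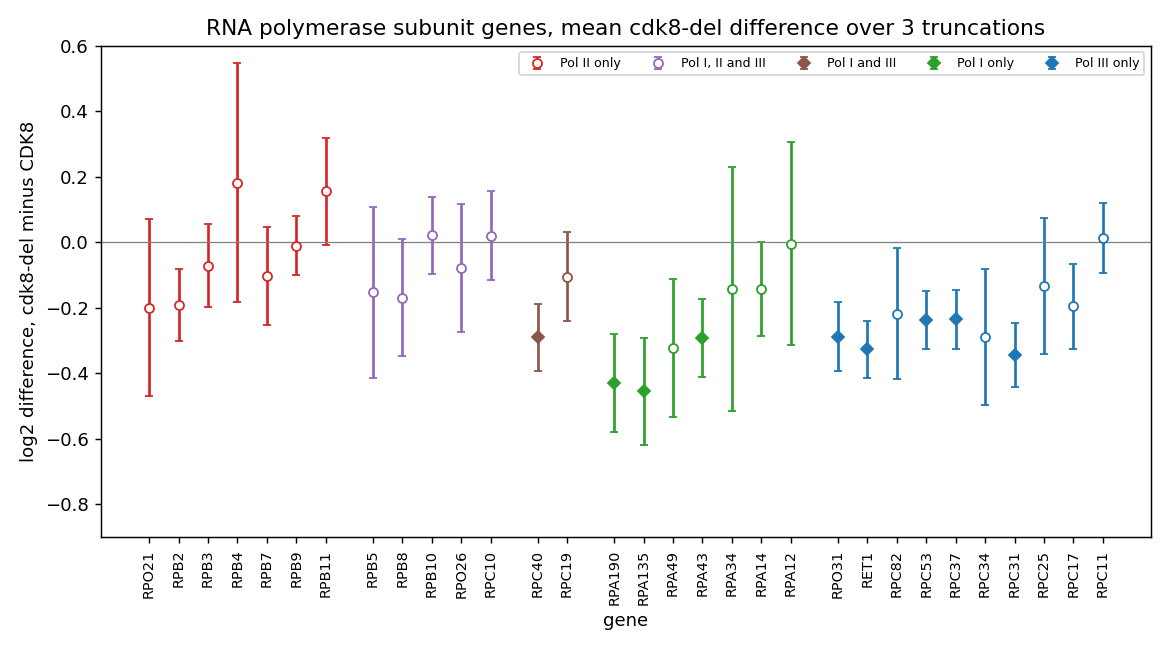
Mean log2 difference of cdk8-del over CDK8 in the 3 truncations for the subunit genes of the nuclear RNA polymerases, with 95% intervals, filled diamonds marking an adjusted p under 0.01. The 8 filled genes of polymerases I and III alone lie between -0.46 and -0.24, as does the shared RPC40, and no polymerase II gene is filled.

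Other genes of the same machinery were given by lists as well. Of 30 other initiation factor genes, 0 were called in any comparison with 1:713, with 1:666 or for cdk8-del. In the short truncations against 1:666, 2 of the 30 passed the p limit, beside 6.51% of all probes in either direction and 2.19% higher. Both were higher: TFB5, of TFIIH (0.27 ± 0.052), and TAF10, of TFIID (0.26 ± 0.043). Of 12 elongation factor genes 1 passed, POB3, of the histone chaperone FACT (0.34 ± 0.060). The list medians were 0.077 and 0.066, beside 0.055 for the members and -0.0065 for all probes. In the blocked fit, 8 of 30 and 4 of 12 passed, all of them higher, beside 12.6% of all probes higher and 17.3% lower. TFB5, TAF10 and POB3 were named after their values were seen. Of 11 genes for enzymes of the C-terminal domain, FCP1 alone was called in that comparison, and of the 4 kinase module genes SSN3 alone was called for cdk8-del. Both are the altered genes themselves, and the limit on the FCP1 probe holds here too.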

How the data were processed

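The scanner files hold spot and local background intensity for both channels, deposited without normalization per the file headers. The deposited log2 ratios, which the authors scaled to total mRNA per the series design text, served as an alternative (r of 0.621 to 0.977 with the values used here). Background was corrected with normexp (offset 50), dyes were balanced by lowess over 12776 gene spots (span 0.4), every ratio was expressed as strain over reference, and the 2 spots of a probe were averaged. Median signals were 292 to 1058 (strain) and 211 to 974 (reference) over backgrounds of 41 to 72, and the number of arrays limits precision. One limma model (3.58.1, R 4.3.3) with a mean per strain gave 20 two-sided contrasts with Benjamini-Hochberg adjustment. The pipeline was tested on simulated data.

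The members and lists were chosen with earlier results of these data known. Values on every array are given for RPO21 and the 11 other members furthest from 0 in any contrast. With strain means removed, arrays of the same letter correlated in all 28 pairs of strains (0.599 to 0.914), and the letter, which the labels give, is also the dye orientation. The alternatives are listed in the section on processing. Chromosomal neighbours came from RefSeq R64: no member adjoins another, FCP1, SSN3, LYS2 or MET17. SPT5 and ESS1 of the lists had no matching probe and are not analysed here, nor are sequences. Figures were drawn in matplotlib 3.10.9.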

Additional observations from a re-analysis of the deposited data

How the results depend on the processing

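The count of members called stayed at 0 in every comparison under plain background subtraction, print-tip lowess, the restriction to probes above background on all arrays, the deposited log2 ratios, the replicate block, an unadjusted p under 0.01 with the fold limit, and the omission of each array in turn. Against the reference it was 2 under median centring (RPB2 higher in 1:609 and 1:594) and 1 when scaled on the external control spots (ROX3 lower). The counts at the p limit alone moved more. Apart from the main fit and the replicate block, the share of all probes passing under a setting is not given here. Without that share, the counts under the other settings are no result about these members. On the external control scale the median of all probes itself lay between -0.43 and -0.13 against the reference in the 8 strains. Against the reference the sum over the 8 strains was 25, and 5 under median centring, 56 (all lower) on the external control scale, 72 with the deposited ratios and 83 with the replicate block. On the mean of the 8 strains it was 13, and 28 on the external control scale, 21 with the deposited ratios and 24 with the replicate block. Against 1:713 it was 2, and 0 under plain background subtraction, median centring or external control scaling, 1 over probes above background on all arrays, 2 with print-tip lowess (ROX3, in 1:609 and 1:594, in place of MED1 and RPB2), 13 with the deposited ratios and 18 with the replicate block. For cdk8-del it was 0 in the single truncations and in the average, and 5 and 7 with the deposited ratios and 7 and 9 with the replicate block. For the short truncations against 1:666 it was 0, and 1 with print-tip lowess (ROX3), 6 with the deposited ratios and 7 with the replicate block. Leaving out each array in turn gave 16 to 27 against the reference, 11 to 13 on the mean, 0 to 1 against 1:713 and 0 to 0 otherwise.

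Of the 40 member values past the p limit, 40 passed with the replicate block and 37 with the deposited ratios, 10 under median centring and 14 on the external control scale. On that scale the typical gene moved by -0.43 to -0.13 against the reference and by 0.18 in the cdk8-del average. Of the 18 members above 0 on the mean of the 8 strains, 16 were below 0 on it, all but RPO21 and RPB2. Of these, RPB11 (-0.036), SPT15 (-0.27), TFG1 (-0.097), TFG2 (-0.18), SOH1 (-0.14), SUA7 (-0.19) and SRB6 (-0.24) passed the p limit on 1 scale or both, and RPB4 (-0.13) and RGR1 (-0.12) on neither. In single strains the sign turned for TFG1 (-0.13) and TFG2 (-0.15) in 1:594, TFG2 in 1:609 (-0.039) and SRB6 in 1:594 cdk8-del (-0.020). The shift follows from the construction of that scale; for the other moves the cause was not tested. MED4, above background in the strain on 4 arrays, is the member whose signal limits its value. The p limit was added after the data were seen.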
